A study of Arabidopsis thaliana with 63 samples.

Results

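The genes described here are 10 genes of the iron deficiency response of Arabidopsis, among the 29961 genes and transposable elements (TEs) with RNA-seq values. They are the 3 small peptide genes IMA1 (AT1G47400), IMA2 (AT1G47395) and IMA3 (AT2G30766), the 4 transcription factor genes bHLH38 (AT3G56970), bHLH39 (AT3G56980), bHLH100 (AT2G41240) and bHLH101 (AT5G04150), and the uptake genes FRO2 (AT1G01580), IRT1 (AT4G19690) and FRO3 (AT1G23020). They were listed by identifier and selected on their fold changes between mutant and WT seedlings in these libraries. Their differences between mutant and WT are therefore given as a description. Calls of these genes in the fit over all features are part of this description and are no test of them. All 10 had values in every library.

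RNA was sequenced from whole seedlings of 3 genotypes in the Col-0 background, with 3 libraries of each. h2a.w-2 combines the CRISPR-Cas9 allele hta6-2, a frame shift with an early stop codon, with the T-DNA alleles hta7 and hta12. h2a.w-1 combines the T-DNA allele hta6-1 with hta7 and hta12. It also carries a large translocation and duplication of part of the right arm of chromosome 1. Loss of H2A.W and this rearrangement therefore cannot be told apart in h2a.w-1. WT is Col-0, and the seedlings of all 3 genotypes were 10 days old, grown with 16 h light and 8 h dark at 23 °C and 50% humidity. The 3 mutated genes encode H2A.W, a histone H2A variant of constitutive heterochromatin, and the RNA-seq comparison asks how its loss affects transcript levels.

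Arabidopsis plants that lack iron acidify the soil, reduce ferric iron at the root surface and import ferrous iron through the root epidermis. In Arabidopsis, the bHLH proteins of the Ib group (bHLH38, bHLH39, bHLH100 and bHLH101) act with the bHLH factor FIT to switch on the ferric reductase gene FRO2 and the iron transporter gene IRT1. The IMA peptides act upstream, where they protect further bHLH regulators from the E3 ligase BTS, and their own genes are among those most strongly induced by iron shortage. Transcripts of most of these genes are low in plants that have enough iron.

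The coding sequences of the 3 IMA genes are shown because IMA1 and IMA2 are near copies whose reads have to be told apart, with IMA3 for comparison. They were read from the TAIR10.1 assembly, 5′ to 3′ on the plus strand, and the capitals mark the 51 bases before the stop codon, which encode the conserved end of the peptide.
IMA1, chromosome 1, 17385818 to 17385970: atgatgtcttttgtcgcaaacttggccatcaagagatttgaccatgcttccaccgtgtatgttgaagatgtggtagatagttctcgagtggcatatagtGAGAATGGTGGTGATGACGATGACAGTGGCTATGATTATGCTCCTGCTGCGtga
IMA2, chromosome 1, 17383117 to 17383269: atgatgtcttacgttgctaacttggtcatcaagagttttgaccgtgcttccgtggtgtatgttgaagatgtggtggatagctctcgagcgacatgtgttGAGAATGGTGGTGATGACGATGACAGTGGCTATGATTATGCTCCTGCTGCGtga
IMA3, chromosome 2, 13108068 to 13108211: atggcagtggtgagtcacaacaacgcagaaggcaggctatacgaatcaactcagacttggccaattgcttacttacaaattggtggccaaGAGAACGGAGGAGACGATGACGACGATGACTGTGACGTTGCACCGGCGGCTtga
IMA1 and IMA2 have the same base at all 51 of these positions and at 136 of the 153 bases of the coding sequence. IMA3 has the same base as IMA1 at 34 of the 51 positions. The longest run of bases that the transcripts of IMA1 and IMA2 share is 59 bases, which is shorter than a read of 75 bases, and only uniquely aligned reads were counted.

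IMA1 and IMA2 also lie close together on chromosome 1, and the 250 bases before each annotated start are shown because both genes were higher in both mutants. Capitals mark runs of at least 12 bases that occur in both windows, 132 bases in each.
IMA1, plus strand, chr1:17385457-17385706: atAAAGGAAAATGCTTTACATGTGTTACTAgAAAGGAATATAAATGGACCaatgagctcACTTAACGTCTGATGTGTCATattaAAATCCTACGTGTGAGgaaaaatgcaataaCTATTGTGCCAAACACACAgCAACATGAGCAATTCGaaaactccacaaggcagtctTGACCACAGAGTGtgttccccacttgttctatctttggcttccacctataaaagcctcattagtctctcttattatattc
IMA2, plus strand, chr1:17382748-17382997: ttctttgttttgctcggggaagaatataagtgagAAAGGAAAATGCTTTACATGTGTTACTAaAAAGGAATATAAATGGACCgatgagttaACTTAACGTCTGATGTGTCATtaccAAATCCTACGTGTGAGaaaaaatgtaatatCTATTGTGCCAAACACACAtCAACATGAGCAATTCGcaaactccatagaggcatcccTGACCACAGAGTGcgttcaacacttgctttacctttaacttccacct
The motif CACGTG, a core that many bHLH proteins recognise and that reads the same on both strands, was in neither window. Among the 10 genes it was found in the windows of bHLH38 and bHLH100, 97 and 91 bases before the start, and 6.49% of 27444 windows of protein-coding genes hold it. The looser form CANNTG, which includes CACGTG, was in the windows of 6 of the 10 genes and in 55.3% of all windows.

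Libraries held 5995162 to 9662485 reads on genes and TEs and are named A, B and C within a genotype, because the values carry no replicate numbers. Values of 3 libraries are listed from A to C. These reads were recovered from deposited group means, and p-values measure the spread between these libraries. The study describes a replicate as a group of seedlings of a genotype picked at random from 1 or more trays, so a tray may be shared between replicates. HTA6 had 136 to 312 reads in the h2a.w-2-labelled libraries and 42 to 65 in h2a.w-1, against 751 to 949 in WT. HTA7 had 56 to 111 reads in the h2a.w-2-labelled libraries and 82 to 96 in h2a.w-1, against 532 to 795 in WT. HTA12, which a gene on the opposite strand overlaps, had 28, 107 and 17 reads in the h2a.w-2-labelled libraries and 19 in each h2a.w-1 library, against 97, 113 and 86 in WT libraries. For HTA12, library B labelled h2a.w-2 reached 108% of the mean in WT, which goes against its label. For HTA6 the same library was at 31.6% of the WT mean, against 33.9% in library A and 23.5% in library C. For HTA7 it was at 11.4%, against 15.2% and 12.25%, so these genes go with its label. The main values of the 10 genes are given below with and without library B. Library C of h2a.w-1 was also high for these genes. It had the highest normalized count of all 9 libraries for 9 of the 10 iron deficiency genes. Of the 19671 features that averaged 10 normalized counts or more, it was the highest library for 14.9%. The 10 genes were selected on fold changes in these same libraries, so these shares are a description and no test. Some of the 10 averaged less than 10 normalized counts, and bHLH38 and bHLH100 had only 7 and 3 reads in library C.

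IMA1 transcripts were higher in both mutants than in WT, and highest in h2a.w-1. The gene had 9, 18 and 6 reads in the h2a.w-2-labelled libraries, in the order A to C, and 28, 33 and 33 reads in h2a.w-1, against 6, 3 and 1 reads in WT. The normalized count, which is reads divided by the size factor of the library, averaged 11.3 ± 5.10 in the h2a.w-2-labelled libraries and 31.0 ± 6.84 in h2a.w-1, against 2.92 ± 1.91 in WT (SD, n = 3 each). No library of one genotype overlapped those of another. The summed reads were 3.68-fold higher in the h2a.w-2-labelled libraries than in WT, with a 95% counting interval of 1.77 to 8.36, and 2.65-fold higher without library B, with an interval of 1.11 to 6.59. They were 9.70-fold higher in h2a.w-1 than in WT, with an interval of 5.05 to 20.9, and 8.78-fold higher without library C. Counting intervals cover counting error only and not the spread between libraries.

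IMA2 followed the same order of means. It had 14, 21 and 23 reads in the h2a.w-2-labelled libraries and 28, 37 and 34 reads in h2a.w-1, against 5, 4 and 4 reads in WT. All 6 mutant libraries lay above all WT libraries, while the libraries of the 2 mutants overlapped. The normalized count averaged 21.8 ± 10.3 in the h2a.w-2-labelled libraries and 32.7 ± 7.72 in h2a.w-1, against 4.16 ± 0.743 in WT (SD, n = 3 each). The fitted log2 fold change was 2.12 ± 0.50 (SE) for the h2a.w-2-labelled libraries against WT and 2.09 without library B. For h2a.w-1 against WT it was 2.81 ± 0.43 (SE), and 2.69 without library C.

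IMA3 showed another pattern, with reads almost only in h2a.w-1. It had 0, 2 and 0 reads in the h2a.w-2-labelled libraries and 24, 52 and 115 reads in h2a.w-1, against 0 reads in each WT library. A count of 0 over the 3 WT libraries allows up to 3 reads among them, and against this floor h2a.w-1 was at least 65.7-fold higher. Without library C of h2a.w-1 it was at least 36.5-fold higher. The h2a.w-2-labelled libraries and WT were both at or under the floor, so no ratio is given for them. The summed reads in the h2a.w-2-labelled libraries were 0.0113 of those in h2a.w-1, with a counting interval of 0.00136 to 0.0414. Both of these reads were in library B, and without it no read of IMA3 was found in the h2a.w-2-labelled libraries. In h2a.w-1, IMA3 was also the IMA gene whose libraries differed most, with a normalized count of 20.6 in library A, 49.4 in library B and 131 in library C. IMA3 overlaps AT2G30760 over 639 bases and CYP71A13 (AT2G30770) over 572 bases, both on the opposite strand. The overlap with AT2G30760 includes the whole coding sequence of IMA3. According to the methods the library kit was directional, but the strand setting of the read counting is not given in the sources used here. CYP71A13, a cytochrome P450 of camalexin synthesis, had 7, 2 and 0 reads in the h2a.w-2-labelled libraries and 17, 6 and 5 reads in h2a.w-1, against 8, 57 and 3 reads in WT. Whether reads of either opposite-strand gene were counted for IMA3 was not tested. AT2G30760 was not analysed here.

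**Figure D1:**
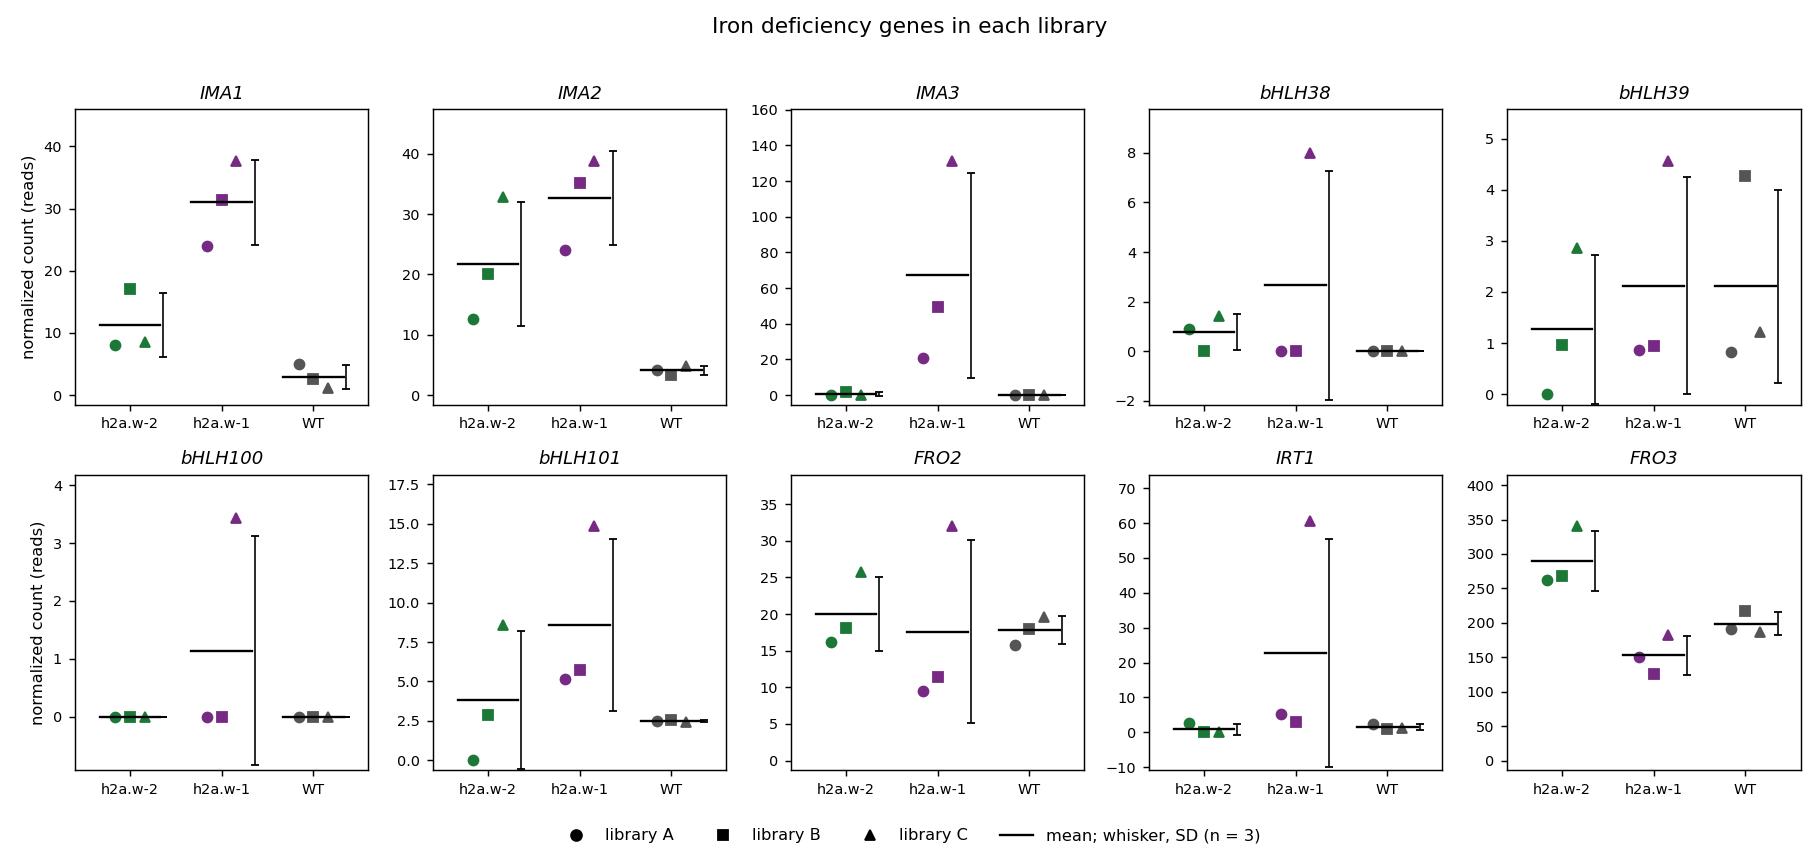
Normalized counts (reads divided by size factor, linear axis) of the 10 iron deficiency genes in the h2a.w-2-labelled libraries A, B and C, h2a.w-1 and WT, with the mean as a line and the SD as a whisker (n = 3). The 6 mutant libraries of IMA1 and IMA2 lie above all WT libraries, IMA3 has 24 to 115 reads in h2a.w-1 libraries and at most 2 in any other, and library C of h2a.w-1 is the highest of all for 9 of the 10 genes.

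Transcripts of the Ib bHLH genes were rare in all genotypes. Over all 9 libraries, none of these 4 genes exceeded 13 reads in a library, and all 4 were under the mean normalized count of 10 that was required for a fit. bHLH38 had 1, 0 and 1 reads in the h2a.w-2-labelled libraries and 0, 0 and 7 reads in h2a.w-1, against 0 reads in each WT library. Without library B the h2a.w-2-labelled libraries still had 2 reads, and without library C h2a.w-1 had none. It overlaps the opposite-strand gene PIP5K4 over 386 bases. bHLH100 was detected in a single library, with 3 reads in library C of h2a.w-1. bHLH39 had 0, 1 and 2 reads in the h2a.w-2-labelled libraries and 1, 1 and 4 reads in h2a.w-1, against 1, 5 and 1 reads in WT, and its libraries overlapped between all genotypes. Its ratio was 0.477 for the h2a.w-2-labelled libraries against WT, with a counting interval of 0.0796 to 2.09, and 0.884 for h2a.w-1 against WT, with an interval of 0.246 to 3.07. Without library B the ratio of the h2a.w-2-labelled libraries was 0.504, with an interval of 0.0511 to 2.65, and without library C that of h2a.w-1 was 0.411, with an interval of 0.0417 to 2.16. A difference in bHLH39 was not detectable at this depth.

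bHLH101 had the highest mean count per kb of exon of the 4 in every genotype. In WT this rests on 8 reads against 7 of bHLH39, so their order there is not resolved. It had 0, 3 and 6 reads in the h2a.w-2-labelled libraries and 6, 6 and 13 reads in h2a.w-1, against 3, 3 and 2 reads in WT. The h2a.w-1 libraries lay above those of WT, and the h2a.w-2-labelled libraries overlapped both. The ratio of h2a.w-1 to WT was 3.22, with a counting interval of 1.41 to 8.27, and it was 2.16 without library C, with an interval of 0.812 to 6.09. For the h2a.w-2-labelled libraries against WT the ratio was 1.25, with an interval of 0.429 to 3.73, and 1.32 without library B. The last 79 bases of bHLH101 overlap GLU1, an abundant glutamate synthase gene on the opposite strand.

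FRO2, the ferric reductase of the root epidermis, did not separate the genotypes. It had 18, 19 and 18 reads in the h2a.w-2-labelled libraries and 11, 12 and 28 reads in h2a.w-1, against 19, 21 and 16 reads in WT. The libraries of the 3 genotypes overlapped, with a normalized count of 19.98 ± 5.07 in the h2a.w-2-labelled libraries and 17.6 ± 12.5 in h2a.w-1, against 17.8 ± 1.91 in WT (SD, n = 3 each). In h2a.w-1, libraries A and B were at 9.43 and 11.4, below every WT library, while library C was at 32.0, above every WT library. The log2 fold change for h2a.w-1 against WT was -0.27 ± 0.44 (SE), and -0.74 without library C. The summed reads of the h2a.w-2-labelled libraries were 1.09 of those in WT, with a counting interval of 0.740 to 1.62, and 1.14 without library B.

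IRT1, the main importer of ferrous iron in the root, had 3, 0 and 0 reads in the h2a.w-2-labelled libraries and 6, 3 and 53 reads in h2a.w-1, against 3, 1 and 1 reads in WT. Library C of h2a.w-1 therefore held 53 of the 62 reads of its genotype. The ratio of h2a.w-1 to WT was 12.8, with a counting interval of 5.20 to 40.8. Without library C it was 2.59, with an interval of 0.780 to 9.84. The h2a.w-2-labelled libraries had 3 reads in all and WT 5, a ratio of 0.668 with an interval of 0.104 to 3.43. Without library B, which had none of these reads, the ratio was 1.06, with an interval of 0.165 to 5.45, so no direction can be read from it.

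FRO3, a mitochondrial ferric reductase that is most active in the vasculature, was the most abundant of the 10 genes and the only one that was lower in h2a.w-1 than in WT without overlap of the libraries. It had 292, 282 and 238 reads in the h2a.w-2-labelled libraries and 175, 132 and 160 reads in h2a.w-1, against 230, 255 and 153 reads in WT. The normalized count averaged 290.1 ± 43.4 in the h2a.w-2-labelled libraries and 153 ± 28.7 in h2a.w-1, against 199 ± 16.5 in WT (SD, n = 3 each). None of the 3 genotypes overlapped another. The log2 fold change was 0.52 ± 0.14 (SE) for the h2a.w-2-labelled libraries against WT and 0.58 without library B, and -0.41 ± 0.15 (SE) for h2a.w-1 against WT. These differences are under 2-fold. The opposite-strand gene LPR1, which overlaps FRO3 over 24 bases, averaged 36.9 normalized counts in the h2a.w-2-labelled libraries and 42.3 in h2a.w-1, against 47.3 in WT.

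Genes were called at an adjusted p under 0.05 by limma voom, over all features that averaged 10 normalized counts or more, and a change of more than 2-fold. For the h2a.w-2-labelled libraries against WT, 3 of the 10 genes passed the filter (IMA2, FRO2 and FRO3) and none was called in either direction. Of all 19658 features tested, 0.0254% were called higher and 0.0153% lower. IMA2 and FRO3 were higher without overlap of the libraries, as were 10.3% of all features, and 10.3% were lower without overlap. For h2a.w-1 against WT, 6 genes passed the filter. IMA1, IMA2 and IMA3 were called higher and none was called lower, against 1.66% and 3.21% of 19712 features. IMA1, IMA2, IMA3 and IRT1 were higher without overlap and FRO3 lower, against 20.2% and 18.5% of all features. For the h2a.w-2-labelled libraries against h2a.w-1, IMA1 and IMA3 of the 6 genes that passed were called lower and none was called higher, against 1.87% and 3.89% of 19605 features. These contrasts were used to choose the genes, so the counts are no evidence about them. In h2a.w-1 against WT, IMA1, IMA2, IMA3 and IRT1 passed the filter only through h2a.w-1. Their WT means were 2.92, 4.155, 0 and 1.52 normalized counts, and IRT1 passed only with library C. IMA2 likewise passed through the h2a.w-2-labelled libraries in their comparison with WT.

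Per kb of exon, the order of the genes differed between genotypes. In WT, FRO3 was at 71.3 ± 5.91 normalized counts per kb, followed by FRO2 at 6.23 ± 0.669, IMA2 at 4.99 ± 0.892, IMA1 at 3.75 ± 2.45 and bHLH101 at 2.31 ± 0.0514 (SD, n = 3). In h2a.w-1, FRO3 was at 54.9 ± 10.3 per kb, followed by IMA1 at 39.8 ± 8.78, IMA2 at 39.2 ± 9.26 and IMA3 at 33.6 ± 28.8 (SD, n = 3), and the libraries of neighbouring genes in this order overlapped. In the h2a.w-2-labelled libraries, FRO3 was at 104 ± 15.6 per kb, followed by IMA2 at 26.2 ± 12.3, IMA1 at 14.5 ± 6.55 and FRO2 at 7.01 ± 1.78 (SD, n = 3). FRO3 thus came first in every genotype, and the means of IMA1 and IMA2 stood above FRO2 in both mutants and below it in WT. The values of IMA1 and IMA2 overlapped within each genotype.

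The genes around each of the 10 genes were summarised by a median, which does not describe single neighbours. IMA1 and IMA2 themselves lie close together, and both were higher in both mutants. The median log2 fold change of the 40 nearest tested genes, 20 on each side, lay between -0.10 and 0.09 for the h2a.w-2-labelled libraries against WT and between -0.13 and 0.02 for h2a.w-1 against WT. For IMA1 and IMA2, which share chromosome 1 with the rearrangement of h2a.w-1, this median was -0.02 in h2a.w-1 against WT.

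Other genes of iron homeostasis were taken from 3 lists of regulators, uptake genes and transport or storage genes, 64 genes in all, of which 59 had values. These lists were also made with earlier results known. For the h2a.w-2-labelled libraries against WT, 0 of 52 tested genes were called by limma voom, and 0 by limma with a trend on log2 values. At an unadjusted p under 0.05, 10 of the 52 genes passed, against 11.6% of all features. Without overlap of the libraries, 2 of the 52 genes were higher and 12 lower (26.9% together), against 10.3% of all features in each direction. The lowest adjusted p of limma voom was 0.187 and the median log2 fold change was -0.11, against 0.0036 over all features. Without library B, 51 genes were tested, none was called, the lowest adjusted p was 0.39 by limma voom and 50 had the same direction. In h2a.w-1 against WT, 4 of 52 genes rose, 4 fell and 44 were not called, and 12 were higher and 12 lower without overlap of the libraries (46.2% together). Of all features, 1.66% were called higher and 3.21% lower, and 20.2% were higher and 18.5% lower without overlap. The median was -0.15, against -0.0091 over all features.

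**Figure D2:**
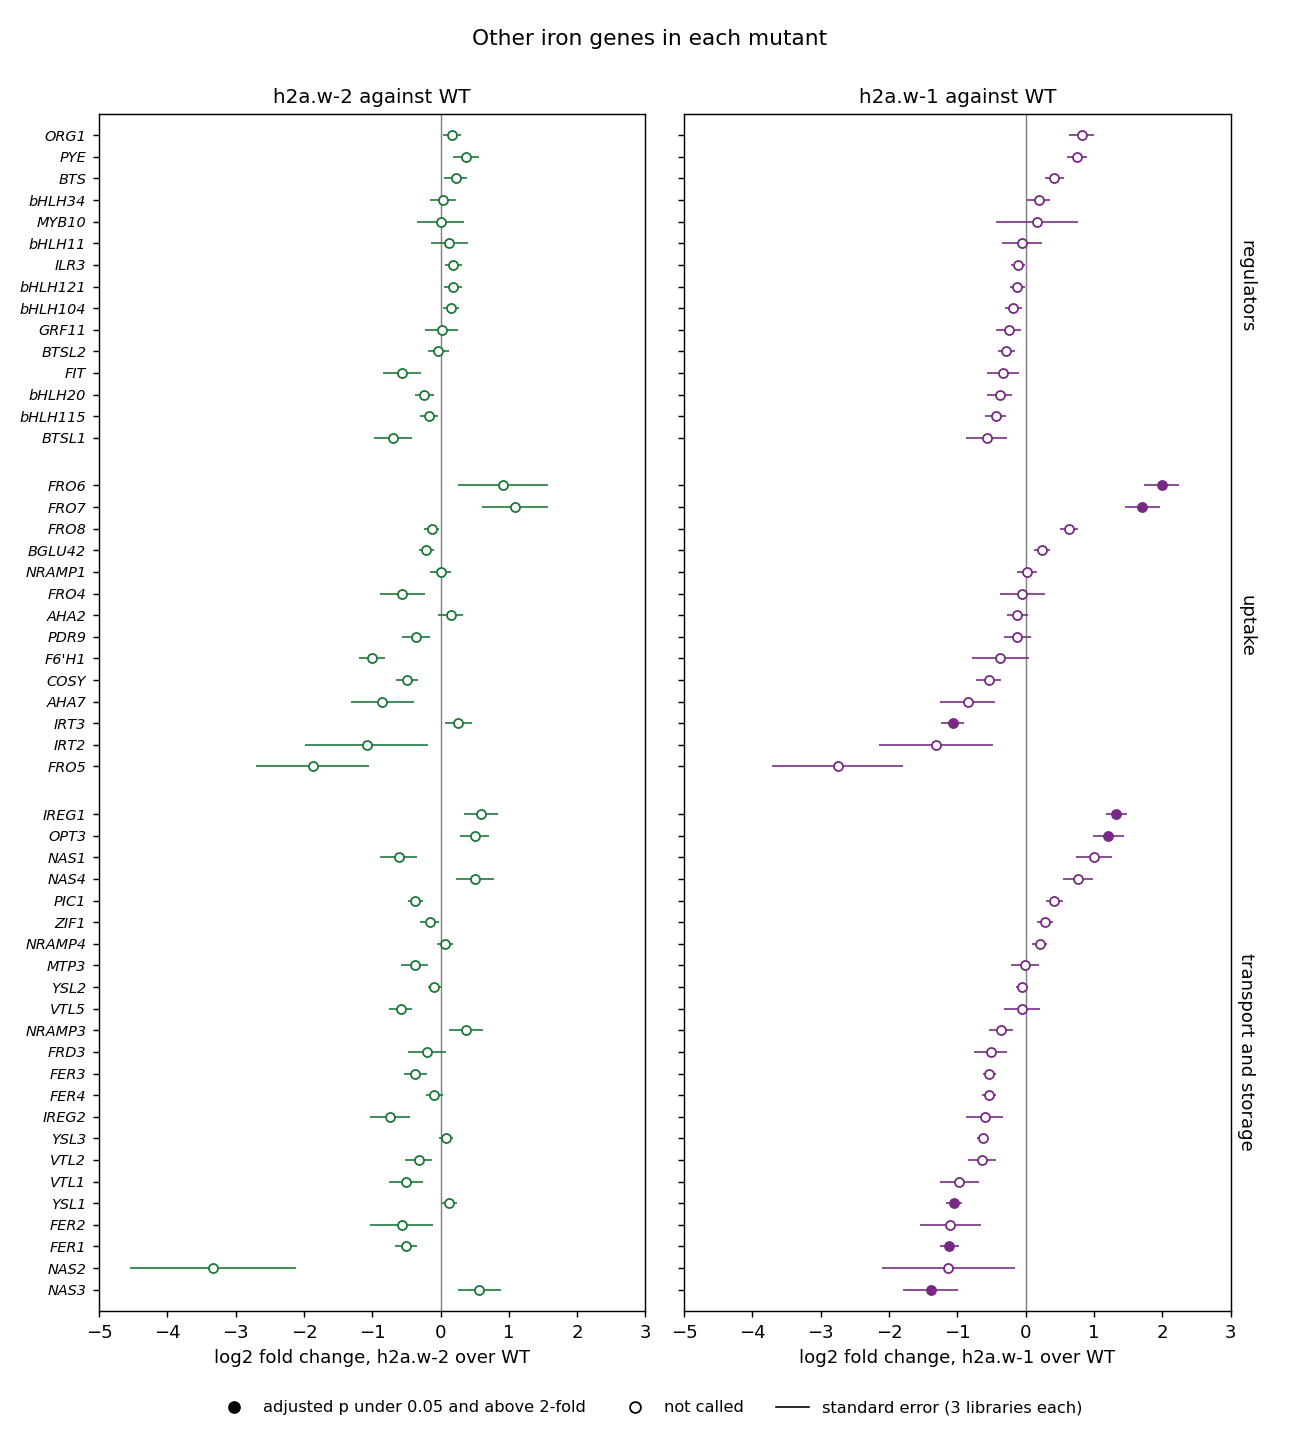
Log2 fold changes (points) with standard errors (bars) of the 52 tested iron genes outside the 10, for the h2a.w-2-labelled libraries against WT (left) and h2a.w-1 against WT (right), by list. Filled points passed the thresholds. None is filled on the left and 8 are filled on the right, 4 above 0 and 4 below.

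The 15 tested regulators held no call in any comparison. FIT, the partner of the Ib bHLH proteins, had 40, 24 and 22 reads in the h2a.w-2-labelled libraries and 37, 38 and 32 in h2a.w-1, against 42, 54 and 45 in WT. Its log2 fold change was -0.56 ± 0.28 (SE, adjusted p = 0.45 by limma voom) for the h2a.w-2-labelled libraries, -0.34 without library B, and -0.33 ± 0.23 (SE, adjusted p = 0.344) for h2a.w-1 against WT. PYE, a bHLH regulator induced in the iron-starved pericycle, had 99, 149 and 80 reads in the h2a.w-2-labelled libraries and 151, 148 and 156 in h2a.w-1, against 107, 99 and 71 in WT. The h2a.w-1 libraries lay above those of WT, while the lowest normalized count of the h2a.w-2-labelled libraries, 88.7, was level with the highest of WT, 88.9. The log2 fold change was 0.37 ± 0.19 (SE, adjusted p = 0.457 by limma voom) for the h2a.w-2-labelled libraries, 0.19 without library B, and 0.75 ± 0.15 (SE, adjusted p = 0.0134) for h2a.w-1, under the 2-fold threshold. BTS, the E3 ligase that the IMA peptides restrain, was at a log2 fold change of 0.42 ± 0.14 (SE, adjusted p = 0.0799 by limma voom) in h2a.w-1 and 0.22 ± 0.17 (SE, adjusted p = 0.577) in the h2a.w-2-labelled libraries. ORG1, a gene coexpressed with the Ib bHLH genes under iron shortage, had 503, 537 and 419 reads in the h2a.w-2-labelled libraries and 744, 826 and 937 in h2a.w-1, against 615, 511 and 353 in WT. Its log2 fold change in h2a.w-1 was 0.82 ± 0.18 (SE, adjusted p = 0.018 by limma voom), again under 2-fold.

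Of the 14 tested uptake genes, FRO6 and FRO7 rose and IRT3 fell in h2a.w-1. FRO6, a ferric reductase of shoot cells, had 144, 526 and 711 reads in the h2a.w-2-labelled libraries and 741, 776 and 1060 in h2a.w-1, against 203, 300 and 172 in WT. FRO7, its chloroplast relative, had 148, 341 and 382 reads in the h2a.w-2-labelled libraries and 363, 444 and 517 in h2a.w-1, against 131, 174 and 111 in WT. In both genes all h2a.w-1 libraries lay above those of WT, and the h2a.w-2-labelled libraries overlapped with both. The log2 fold changes in h2a.w-1 were 1.99 ± 0.26 (SE, adjusted p = 0.00259 by limma voom) for FRO6 and 1.71 ± 0.25 (SE, adjusted p = 0.00408) for FRO7. The transcripts of this pair share a run of 382 bases, so reads inside it have no unique alignment and the split between the 2 genes is uncertain. IRT3, a zinc and iron transporter, had 511, 410 and 402 reads in the h2a.w-2-labelled libraries and 219, 190 and 162 in h2a.w-1, against 360, 509 and 372 in WT, a log2 fold change of -1.07 ± 0.17 in h2a.w-1 (SE, adjusted p = 0.00491 by limma voom). FRO5, a root reductase gene, had 193, 35 and 39 reads in the h2a.w-2-labelled libraries and 16, 72 and 61 in h2a.w-1, against 123, 391 and 467 in WT. It was lower in h2a.w-1 without overlap, but its log2 fold change of -2.75 ± 0.96 did not pass (SE, adjusted p = 0.085 by limma voom). FRO5 was called lower under 4 of 12 alternatives, namely both limma trend fits, sample quality weights and without WT library A, with log2 fold changes of -3.49 to -1.89 and adjusted p of 0.00821 to 0.235 over all 12. Its transcript shares a run of 92 bases with FRO4, which is longer than a read, so the split between this pair is uncertain too. F6'H1, an enzyme of coumarin synthesis, averaged 180.3 ± 19.4 normalized counts in the h2a.w-2-labelled libraries, against 369 ± 93.2 in WT (SD, n = 3 each), without overlap and without a call (adjusted p = 0.187 by limma voom). FRO8, a mitochondrial reductase, was at 0.64 ± 0.13 on the log2 scale in h2a.w-1 against WT (SE, adjusted p = 0.015 by limma voom), under 2-fold.

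Of the 23 tested transport and storage genes, 2 rose and 3 fell in h2a.w-1. OPT3, which loads iron into the phloem, had 421, 529 and 486 reads in the h2a.w-2-labelled libraries and 751, 772 and 1073 in h2a.w-1, against 410, 480 and 269 in WT, with a log2 fold change of 1.21 ± 0.23 in h2a.w-1 (SE, adjusted p = 0.00987 by limma voom). It was 0.94 without library C of h2a.w-1, under the threshold. IREG1, a ferroportin, had 63, 98 and 69 reads in the h2a.w-2-labelled libraries and 147, 127 and 134 in h2a.w-1, against 65, 60 and 41 in WT, at 1.33 ± 0.16 in h2a.w-1 (SE, adjusted p = 0.002 by limma voom). FER1, the iron storage protein ferritin, fell. It had 4873, 4199 and 2295 reads in the h2a.w-2-labelled libraries and 3247, 2198 and 2400 in h2a.w-1, against 6135, 5874 and 5184 in WT. Its log2 fold change was -1.12 ± 0.14 in h2a.w-1 (SE, adjusted p = 0.00245 by limma voom), -0.99 without library B of h2a.w-1, and -0.51 ± 0.16 in the h2a.w-2-labelled libraries (SE, adjusted p = 0.376). YSL1, a transporter of metals bound to nicotianamine, had 1136, 1115 and 694 reads in the h2a.w-2-labelled libraries and 506, 433 and 455 in h2a.w-1, against 1279, 1001 and 735 in WT, at -1.05 ± 0.12 in h2a.w-1 (SE, adjusted p = 0.002 by limma voom).

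The nicotianamine synthase genes, whose product binds iron for transport, did not move as a group. NAS3 had 536, 486 and 544 reads in the h2a.w-2-labelled libraries and 133, 115 and 224 in h2a.w-1, against 741, 330 and 243 in WT. It fell in h2a.w-1 by 1.39 on the log2 scale (SE 0.40, adjusted p = 0.0459 by limma voom), a call that was lost without library A or B of h2a.w-1 or any WT library, at adjusted p of 0.053 to 0.163. NAS1 had 155, 243 and 86 reads in the h2a.w-2-labelled libraries and 768, 547 and 302 in h2a.w-1, against 345, 214 and 241 in WT, with a log2 fold change of 1.00 ± 0.26 in h2a.w-1 at the 2-fold threshold (SE, adjusted p = 0.0353 by limma voom, not called). NAS4 was at 0.77 ± 0.22 in h2a.w-1 (SE, adjusted p = 0.0487 by limma voom). NAS2 had 1, 1 and 2 reads in the h2a.w-2-labelled libraries and 18, 9 and 3 in h2a.w-1, against 81, 13 and 5 in WT, and it was not called.

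Other separated genes of this list had smaller differences. PIC1, a chloroplast import protein, was at 0.42 ± 0.12 in h2a.w-1 (SE, adjusted p = 0.0492 by limma voom) and -0.37 ± 0.11 in the h2a.w-2-labelled libraries (SE, adjusted p = 0.376) against WT. YSL3, a relative of YSL1, was at -0.63 ± 0.08 in h2a.w-1 against WT (SE, adjusted p = 0.00243 by limma voom). VTL1, a vacuolar iron transporter, was at -0.97 ± 0.29 in h2a.w-1 (SE, adjusted p = 0.0549 by limma voom). IREG2, the vacuolar relative of IREG1, was at -0.74 ± 0.29 in the h2a.w-2-labelled libraries (SE, adjusted p = 0.414 by limma voom).

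**Figure D3:**
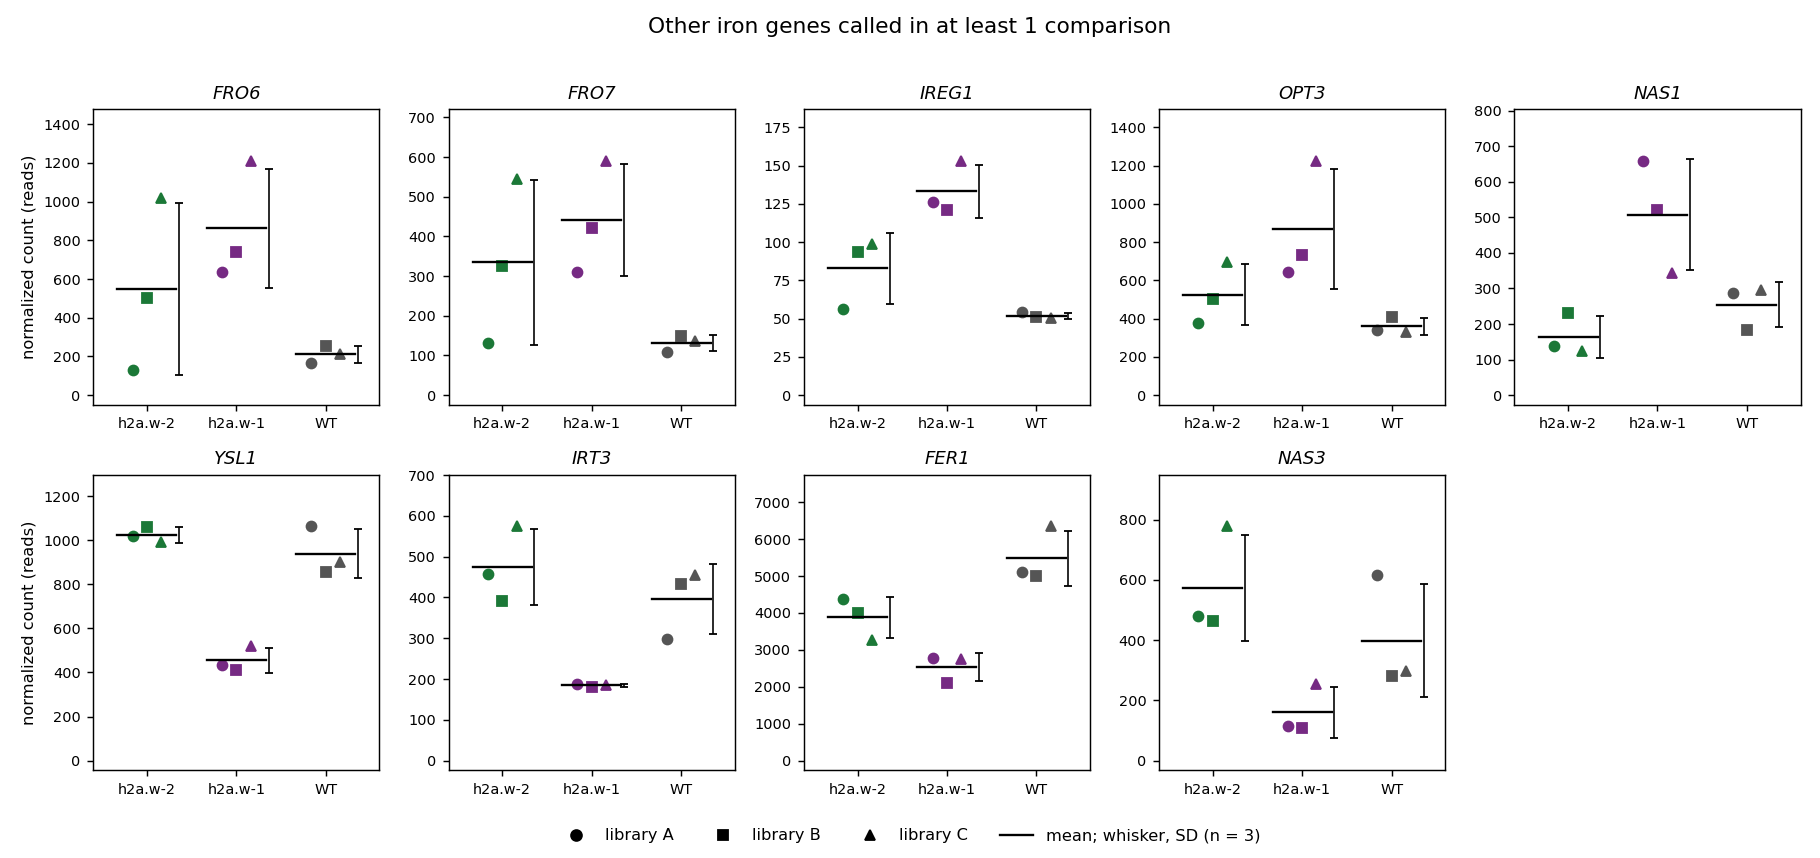
Normalized counts (reads divided by size factor, linear axis) of the 9 iron genes outside the 10 that were called in at least 1 comparison, in h2a.w-2-labelled libraries, h2a.w-1 and WT, with the mean as a line and the SD as a whisker (n = 3). FRO6, FRO7, IREG1 and OPT3 are higher and YSL1, IRT3, FER1 and NAS3 lower in h2a.w-1 than in WT, and NAS1 is called only between the mutants.

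For the h2a.w-2-labelled libraries against h2a.w-1, 3 of 51 tested genes of the 3 lists were higher and 1 was lower, against 3.89% and 1.87% of all features. IRT3, NAS3 and YSL1 were higher in the h2a.w-2-labelled libraries, at log2 fold changes of 1.34 ± 0.16 (SE, adjusted p = 0.00335 by limma voom), 1.95 ± 0.33 (SE, adjusted p = 0.00919) and 1.18 ± 0.12 (SE, adjusted p = 0.00202). NAS1 was lower, at -1.61 ± 0.30 (SE, adjusted p = 0.0127 by limma voom). In each of these 4 genes the libraries of the mutants did not overlap, and all 4 calls held without library B labelled h2a.w-2.

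The genes whose levels over the 9 libraries were most like the mean log2 level of the 10 genes were ranked by Pearson's r among 19671 features. The libraries share their genotypes and library C of h2a.w-1, so r is a description here, over 9 libraries. WNK1, a protein kinase gene, came first (r = 0.984), followed by AT4G39960 (0.982), the malate synthase gene MLS (0.974), the transcription factor gene TCP4 (0.968) and ORG1 (0.967). AT3G13040, OPT3, AT1G62030, AT1G49750 and ATCSLC08 completed the first 10, at 0.963 to 0.948. ORG1 and OPT3 are the members of the iron lists among them. PYE ranked 210 (r = 0.882), IREG1 ranked 252 (r = 0.874) and BTS ranked 440 (r = 0.846), while FER4, another ferritin gene named after its value was seen, was at r = -0.931. Most genes of the iron lists had an r below 0. The lists mix regulators, uptake, transport and storage genes, so the sign of r does not tell whether they followed the 10 genes. Among the regulators, FIT ranked 12079 (r = -0.221), bHLH34 was at r = 0.349 and bHLH115 at r = -0.89. MLS, for example, had 16, 15 and 11 reads in the h2a.w-2-labelled libraries and 22, 27 and 47 in h2a.w-1, against 15, 13 and 11 in WT. When the genotype means were subtracted first, TAF4 (r = 0.973), the linker histone gene HIS1-3 (0.968), AT1G50410 (0.964), AFO (0.963), BPM5 (0.961), AT4G39960 (0.959), AT1G71170 (0.957), WNK1 (0.957), AT5G13590 (0.954) and PCFS4 (0.953) came first. AT4G39960 and WNK1 were in both groups of 10.

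Markers of root, green tissue and time of day were measured in the same libraries. Because the libraries are of whole seedlings, fewer cells of a type and less RNA per cell cannot be told apart. The 13 root markers, all of which had reads in every library, summed to 1706 to 2328 normalized counts in the h2a.w-2-labelled libraries and 1237 to 2073 in h2a.w-1, against 1814 to 3874 in WT. Of these markers, 0 of 13 were called by limma voom in the h2a.w-2-labelled libraries, with a median log2 fold change of -0.55, and 1 fell in h2a.w-1, with a median of -0.88. Library C of h2a.w-1 was at 1614, between the other libraries of its genotype. IRT1 and FRO2 of the root epidermis were highest in library C. The sum is weighted to the most abundant markers, such as PHT1;1 and PIP2;4 with WT means of 662 and 531, and does not describe single markers. CAB2, a light-harvesting gene of green tissue, was at 2329 to 2958 normalized counts in the h2a.w-2-labelled libraries and 5464 to 7623 in h2a.w-1, against 3035 to 4888 in WT. Its log2 fold change was 0.86 ± 0.20 in h2a.w-1 (SE, adjusted p = 0.0217 by limma voom), under 2-fold and so not called. In the h2a.w-2-labelled libraries it was -0.54 ± 0.19 (SE, adjusted p = 0.399), also not called. The authors' means of 9 green tissue markers summed to 90450 in h2a.w-2 against 94860 in WT in one table, and to 153300 in h2a.w-1 against 99120 in WT in the other. The 9 clock genes, which follow the time of day, summed to 7461 to 11790 normalized counts in the h2a.w-2-labelled libraries and 7197 to 8724 in h2a.w-1, against 5348 to 6377 in WT. Of these, 0 of 9 were called by limma voom in the h2a.w-2-labelled libraries, with a median log2 fold change of 0.75 and 9 of 9 above 0, and 1 rose in h2a.w-1, with a median of 0.36 and 8 of 9 above 0. The part of tissue composition and of time of day in the differences of the iron genes was not tested.

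**Figure D4:**
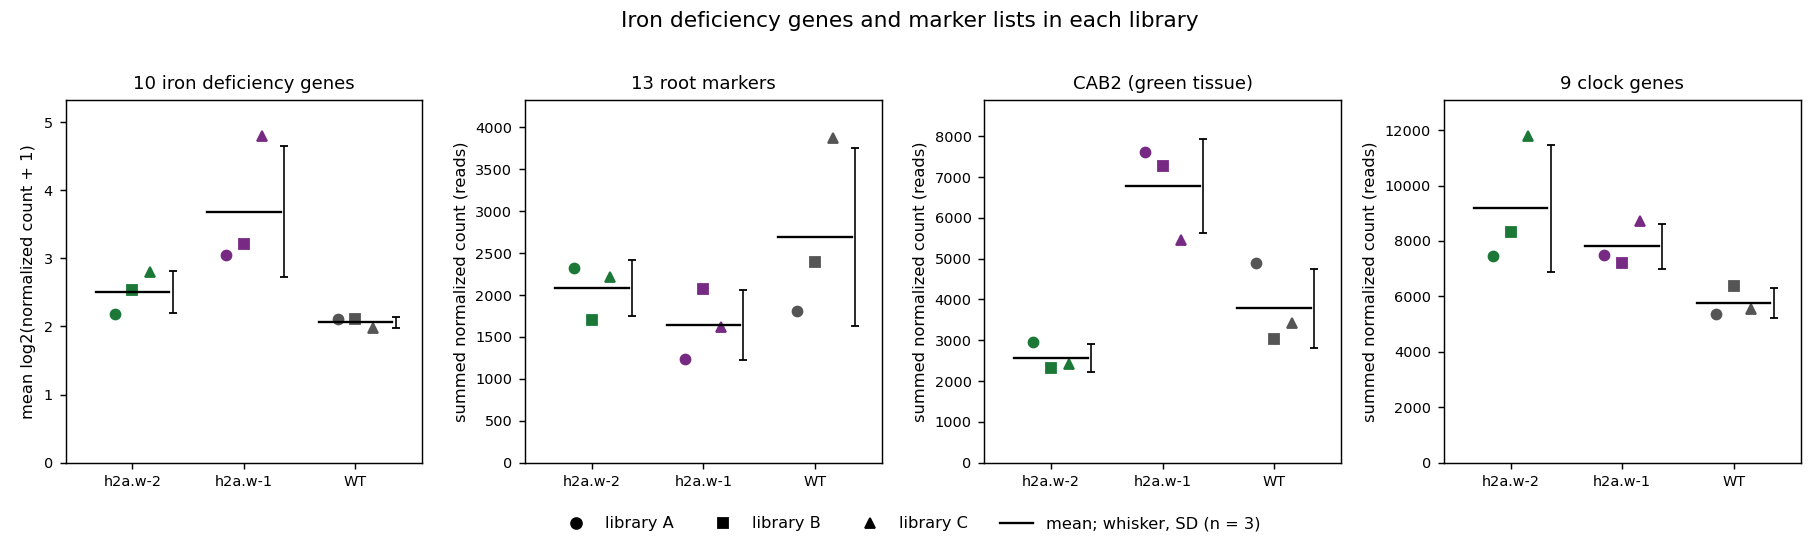
Mean log2(normalized count + 1) of the 10 iron deficiency genes, and normalized counts summed over 13 root markers, of CAB2 and summed over 9 clock genes, in h2a.w-2-labelled libraries, h2a.w-1 and WT, with the mean as a line and the SD as a whisker (n = 3). The iron deficiency genes are highest in library C of h2a.w-1, at 4.79. The root markers of that library, at 1614, lie between those of libraries A and B.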

How the data were processed

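RNA-seq libraries of 10-day-old seedlings were analysed, with 3 libraries each of h2a.w-2, h2a.w-1 and WT. According to the methods and the processing notes, the authors depleted ribosomal RNA, trimmed reads of 75 bases with Trim Galore 0.5.0, aligned them to TAIR10 with STAR (2.7.0c in the processing notes, another release letter in the paper), kept unique alignments, removed duplicates with Picard and counted reads on Araport11 genes and TEs with htseq-count. The deposited values used here are a signal, which the authors made as the mean over a genotype of counts divided by DESeq2 size factors. The 6 other columns of each table hold an overall mean and the authors' comparisons (fold changes, errors and p-values) and were not used.

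The reads behind each deposited mean were found by trying all combinations of reads, up to a mean of 12000, and a single combination resulted for 29910 of 29961 features (99.8%) over all 9 libraries. These held 90.7% to 92.3% of the summed means. For 51 features no library values are given. WT reads came out the same from both tables for all 29938 features found in both. The letters A, B and C order libraries by size factor, from the largest. Pairs of libraries of a genotype differed by more than sampling noise, at 3.39 to 17.9 for chi-square divided by its degrees of freedom.

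Because the files hold means and not a count table, recovered reads were tested with limma 3.58.1 (voom, R 4.3.3), with both genotypes of a comparison in the fit, features that averaged 10 normalized counts or more, Benjamini-Hochberg adjustment over all of them, calls at an adjusted p under 0.05 with a log2 fold change beyond 1 in either direction. Overlap of libraries was judged on the size factors of the 2 genotypes compared. The scripts were tested on simulated data. Size factors over all 9 libraries (median ratios) gave the levels. Counting intervals of ratios are exact 95% intervals conditional on the summed reads, and the reads carry no molecular identifiers. Alternatives were another filter, scaling, model, pseudocount, joint fit, call rule and library weights, and leaving out each library.

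The 10 genes and all lists were chosen with earlier results of these data known. The genes named were the 10, every listed iron gene that was called, up to 20 whose libraries did not overlap between genotypes, FIT, PYE and BTS, the H2A.W genes and the 10 genes most like the 10 genes in each of the 2 rankings. Positions, symbols and sequences come from RefSeq for TAIR10.1 and the names IMA1 to IMA3 from the list. Fold changes against a genotype without reads use a floor of 3 reads over its 3 libraries.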

Additional observations from a re-analysis of the deposited data

Results flagged for a closer look

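In 4 iron genes outside the 10, the mutants' differences from the shared WT libraries were themselves different, as limma voom of the h2a.w-2-labelled libraries against h2a.w-1 showed. IRT3 was higher in the h2a.w-2-labelled libraries, with a log2 fold change of 1.34 and all 3 libraries above those of h2a.w-1. YSL1 was higher by 1.18 and NAS3 by 1.95 on the log2 scale, again with all libraries separated. NAS1 was lower, at -1.61. The call of NAS3 was lost without library A of h2a.w-1 (adjusted p = 0.0526 by limma voom) and that of NAS1 without library B of h2a.w-1 (adjusted p = 0.0532), while IRT3 and YSL1 were called under all 12 alternatives that used the same thresholds.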

How the results depend on the processing

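The number of features called for the h2a.w-2-labelled libraries against WT, 8, was 33 without a filter on low counts, 38 in one fit over all 9 libraries, 25 with sample quality weights and 3 to 10 when a library was left out (5 without h2a.w-2 library B, WT library A or WT library C, 3 without WT library B). No iron gene outside the 10 was called there under any alternative run. For h2a.w-1 against WT, the adjusted p alone called 3606 features in place of 959 and 17 iron genes in place of 8, and leaving out a library gave 641 to 1167 features and 5 to 11 iron genes (5 without h2a.w-1 library B). For the h2a.w-2-labelled libraries against h2a.w-1, the adjusted p alone called 2892 features in place of 1129 and 10 iron genes in place of 4, and leaving out a library gave 562 to 1145 features (562 without h2a.w-1 library A, 609 without library B) and 3 to 5 iron genes. The cause of these changes was not tested. Of the single calls in h2a.w-1 against WT, FRO6 was lost in one fit over all 9 libraries (adjusted p = 0.0559), IRT3 without WT library B (-0.98) or C (-0.97), YSL1 without h2a.w-1 library B (-0.98) or WT library A (-0.95), FER1 without h2a.w-1 library B (-0.99) and OPT3 without h2a.w-1 library C (0.94), the last 4 on the log2 fold change alone. FRO7 and IREG1 were called under all 12 alternatives with the same thresholds. No paired analysis was possible because the columns carry no replicate numbers. Depth limits the 4 Ib bHLH genes and IRT1, which had 0 to 13 reads in most libraries.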

Other observations

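One further gene of the uptake list was below the filter and was chosen after its values were seen. CYP82C4, a cytochrome P450 of the coumarin pathway that iron shortage induces, had 0 reads in each library labelled h2a.w-2 and 11 reads in library C of h2a.w-1, with 0 in libraries A and B, against 0 reads in each WT library. The 11 reads were thus in the library in which IRT1, IMA3, bHLH38 and bHLH100 also had their highest counts. Other listed iron genes went the other way, and those named here were also chosen after their values were seen. F6'H1 of the same pathway was at 406, 396.5 and 119 normalized counts in libraries A to C of h2a.w-1. MYB10, a listed regulator, was at 18.0, 19.0 and 3.43. Both were lower in library C than in any other library.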
